A study of Mus musculus with 12 samples.

Results

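Busulfan-treated mouse livers were compared to livers without busulfan by RNA-seq, with alginate oligosaccharide (AOS) dosing taken into account. The 6 libraries with busulfan were 3 of the BA0 group (busulfan 40 mg/kg body weight injected once into the peritoneum, then ddH2O) and 3 of the BA10 group (the same injection, then AOS 10 mg/kg by oral gavage). The 6 libraries without busulfan were 3 of the A0 group (ddH2O only) and 3 of the A10 group (AOS 10 mg/kg only), so AOS was given to 3 of the 6 libraries on each side. Gavage lasted 5 weeks in all groups and the livers were taken after it, so every value is from about 5 weeks after the single injection. The methods describe male ICR mice that were 3 weeks old at the start, whereas the strain label reads IRC mouse and the tissue label reads Cells. Whether a library came from 1 mouse or from a pool was not stated, and p-values therefore measure the spread between libraries. All genes with at least 10 reads in 3 or more of the 12 libraries were tested, which left 12962 of the 17871 genes in the table (72.5%). Just inside this limit were 179 genes that reached 10 reads in exactly 3 libraries (median 6.5 reads over the 12 libraries), and just outside were 216 genes that reached it in exactly 2 (median 5.0 reads). Another 52 of the tested genes reached 10 reads in 3 or more busulfan libraries and in 0 of the others, and 20 showed the reverse.

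Busulfan is a bifunctional alkylating agent that links DNA strands to each other and is used before stem cell transplantation. It is conjugated to glutathione by glutathione transferases, mainly in the liver. Damaged DNA stabilises the transcription factor p53, which switches on genes that stop the cell cycle, repair DNA or drive cell death, among them its own inhibitor Mdm2. Hepatocytes are long-lived cells that divide rarely in the adult, and they share the liver with sinusoidal endothelial cells, Kupffer cells and stellate cells.

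The libraries held between 16439508 and 18174590 counts. Of 30 hepatocyte genes checked 29 were tested, with Alb, Ttr, Apoa1, Cps1 and Hnf4a among them, and together they made up 158286 to 190339 CPM (counts scaled to library size) in the 6 busulfan libraries and 163445 to 198320 CPM in the 6 without. Replicates 1 and 2 of the A0 group stood apart from the other libraries. Their scaling factors were 0.851 and 0.879 (0.97 to 1.08 in the rest), and gene length and GC content accounted for 25.8% and 18.5% of the variance of their deviations (0.4% to 7.8% in the rest). Replicate 3 of the A10 group also differed from its own group and lay among the busulfan libraries on the first principal component (25.4, against 3.62 to 27.9 in the busulfan libraries and -6.79 to -6.12 in the other A10 libraries). Counts of called genes in the pooled test are given with and without these libraries, and values of single genes where stated.

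Busulfan changed 225 of the 12962 genes at an adjusted p under 0.05 (1.74%; edgeR quasi-likelihood test, Benjamini-Hochberg adjustment over all genes tested), with 169 genes higher (1.3%) and 56 lower (0.432%). Most changes were modest. The median log2 fold change was 0.73 among the higher genes and -0.64 among the lower genes, 47 genes rose by 1 or more on the log2 scale and 5 fell by that much. All 6 busulfan libraries lay above all 6 others for 97 genes tested (0.748%) and below them for 80 genes (0.617%). Of the 225 genes, 56 were of the first kind, 32 of the second and 137 overlapped between the groups. An unadjusted p under 0.05 was found for 2483 genes (19.2%), and the smallest adjusted p was 0.00671, for Banp. With upper-quartile scaling the split was 128 higher and 76 lower, and DESeq2 gave 398 higher and 232 lower. Without A0 replicates 1 and 2 together, 4 genes passed (Banp, Eda2r, Palld and Rasgef1b, all higher). All 225 genes kept their direction and an unadjusted p under 0.05. They had been called with these same libraries included, so this is no independent check.

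Several genes that p53 switches on rose. Of 38 tested p53 target genes, 9 rose with busulfan (1.3% of all genes tested rose) and 0 fell. The 6 busulfan libraries lay above the 6 others for 7 of the 38 genes (0.748% of all genes tested), 6 of which were among the 9 that rose. Eda2r and Phlda3 met the read filter through busulfan libraries alone and so had to differ. Of the other 36 genes 7 rose, 4 of them with no overlap between the groups. The median log2 fold change of the 38 genes was 0.31, against 0.00 over all genes tested. It was 0.35 in BA0 compared to A0 and 0.26 in BA10 compared to A10, groups that share no library. Bax, a pore-forming death effector and a textbook p53 target, did not pass (log2 fold change 0.16 ± 0.12 SE, adjusted p = 0.472).

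Eda2r, the receptor of ectodysplasin A2 in the tumor necrosis factor receptor family, had the largest log2 fold change of the 15 top-ranked higher genes. The gene lies on chromosome X (97333840 to 97377216, minus strand, build mm10, GENCODE M21). Eda2r had 1.40 to 4.52 CPM (median 3.03) in the 6 busulfan libraries, against 0 to 0.464 CPM (median 0.275) in the 6 libraries without busulfan. Every busulfan library was thus above every library without busulfan. The log2 fold change was 3.59 ± 0.43 (SE, edgeR adjusted p = 0.0097), and Eda2r kept its call without A0 replicates 1 and 2 (log2 fold change 3.44, adjusted p = 0.0499). Phlda3, which competes with the kinase Akt for membrane lipids and thereby restrains it, had 0.874 to 1.98 CPM (median 1.12) in the busulfan libraries, against 0 to 0.232 CPM (median 0.145) in the others. Again the groups did not overlap, at a log2 fold change of 3.33 ± 0.43 (SE, edgeR adjusted p = 0.0097). Neither gene reached 10 reads in any library without busulfan, so that both were tested only because of their level in the busulfan libraries.

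Cdkn1a, which encodes the cyclin-dependent kinase inhibitor p21 and lies on chromosome 17 (29090976 to 29100727, plus strand, mm10), had 17.6, 32.6 and 15.1 CPM in BA0 livers and 26.3, 22.4 and 14.1 CPM in BA10 livers, against 9.10, 4.90 and 4.18 CPM in A0 livers and 5.45, 6.06 and 2.48 CPM in A10 livers. Every busulfan library was above every other library, with or without AOS, and the log2 fold change was 2.01 ± 0.28 (SE, edgeR adjusted p = 0.00977). Ccng1, cyclin G1, had 52.3, 61.4 and 53.7 CPM in BA0 livers and 54.8, 49.1 and 63.8 CPM in BA10 livers, against 22.5, 25.3 and 31.8 CPM in A0 livers and 38.9, 35.5 and 34.4 CPM in A10 livers. The lowest busulfan library was 49.1 CPM and the highest of the others 38.9 CPM, and the log2 fold change was 0.85 ± 0.11 (SE, edgeR adjusted p = 0.00977).

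Aen, an exonuclease that promotes apoptosis, had 18.1 to 26.4 CPM (median 21) with busulfan and 9.18 to 15.4 CPM (median 13) without, a log2 fold change of 0.79 ± 0.13 (SE, edgeR adjusted p = 0.0157). Zmat3, an RNA-binding zinc finger protein, had 6.24 to 8.33 CPM (median 7.91) with busulfan and 3.83 to 5.53 CPM (median 4.50) without, a log2 fold change of 0.71 ± 0.12 (SE, edgeR adjusted p = 0.0157). Neither gene overlapped between the groups. In 3 genes the groups did overlap. Trp53inp1, a p53-induced nuclear protein that also acts in autophagy, had 62.2 to 255 CPM (median 141) with busulfan and 24.9 to 76.6 CPM (median 46.2) without. Its log2 fold change was 1.55 ± 0.21 (SE, edgeR adjusted p = 0.00977), and the highest library without busulfan was A10 replicate 3. Trp53inp1 passed both without AOS (1.30, adjusted p = 0.0341) and with AOS (1.79, adjusted p = 0.0478). Btg2, an antiproliferative gene that is also induced early by other stimuli, had 4.14 to 23.2 CPM (median 11) with busulfan and 2.44 to 5.49 CPM (median 3.35) without (log2 fold change 1.57 ± 0.30 SE, edgeR adjusted p = 0.0256). Its log2 fold change was 2.31 in BA10 compared to A10 (adjusted p = 0.0203) and 0.77 in BA0 compared to A0 (adjusted p = 0.121). Mdm2, the ubiquitin ligase that degrades p53, had 28.1 to 36.2 CPM (median 33.5) with busulfan and 21.6 to 28.3 CPM (median 26.3) without, the smallest of the 9 rises at 0.36 ± 0.07 on the log2 scale (SE, edgeR adjusted p = 0.0259).

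**Figure D1:**
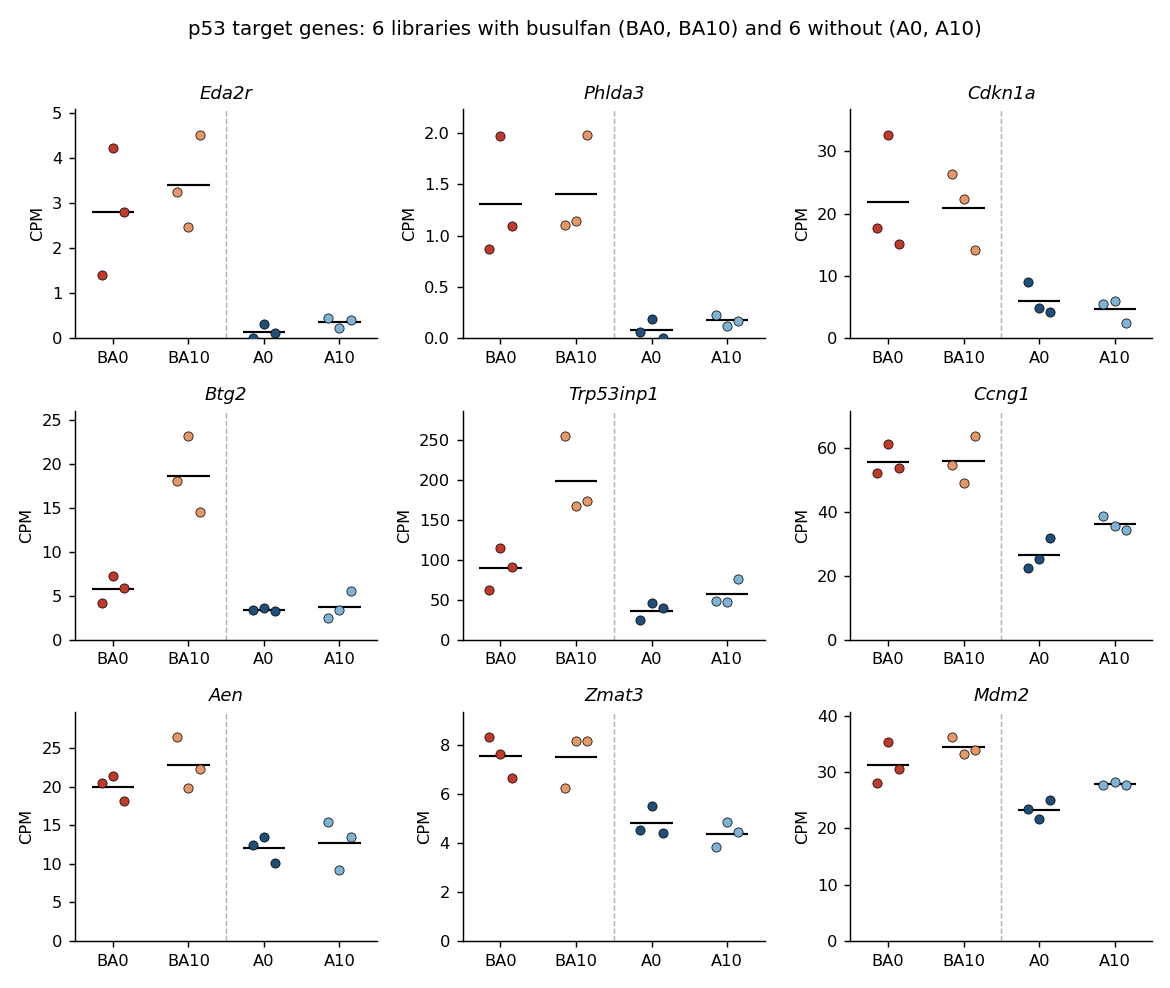
CPM of the 9 p53 target genes that rose with busulfan, in each of the 12 libraries (points) of the BA0, BA10, A0 and A10 groups, with the mean of each group of 3 as a line. For Eda2r, Phlda3, Cdkn1a, Ccng1, Aen and Zmat3 the 6 busulfan libraries all sit above the 6 libraries without busulfan, whereas Trp53inp1, Btg2 and Mdm2 overlap.

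Leaving out 1 library at a time left most of these calls in place. Eda2r, Phlda3, Cdkn1a, Trp53inp1, Ccng1, Aen and Zmat3 kept an adjusted p under 0.05 with each of the 12 libraries left out in turn, and their highest values were between 0.0272 and 0.0446. Btg2 lost its call without A0 replicate 3, A10 replicate 2, BA0 replicate 2, BA10 replicate 1 or BA10 replicate 3 (highest adjusted p = 0.0718). Mdm2 kept it only without A10 replicate 3, BA0 replicate 1 or BA10 replicate 2 (highest adjusted p = 0.072). Between 7 and 11 of the 38 genes were higher in these fits, and 1 gene was lower in the fit without A10 replicate 3. Without A0 replicates 1 and 2 together the count was 1, Eda2r, which met the read filter through busulfan libraries alone. The edgeR adjusted p of the other 8 genes was between 0.0533 and 0.141 in that fit.

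RefSeq promoter windows (build GRCm38.p6, from 250 bases before to 50 after an annotated start) were searched on both strands for the p53 response-element decamer. A window was at hand for 29 of the 38 tested targets. The decamer was found in 9 of them, against 2582 of 27025 genes with a window (9.55%). These 27025 genes were not limited to the genes tested. The list was made of known p53 targets, so its share says nothing about busulfan. Among the genes that rose, Cdkn1a, Ccng1, Aen and Mdm2 held it in at least 1 window and Btg2, Eda2r and Phlda3 did not. Trp53inp1 and Zmat3 had no window here. In the sequences below the decamer is in capitals, and each belongs to 1 annotated start of a gene whose values are given above. A match is a description of these letters and not a measured binding site.
Cdkn1a (chr17:29090729-29091028, plus strand): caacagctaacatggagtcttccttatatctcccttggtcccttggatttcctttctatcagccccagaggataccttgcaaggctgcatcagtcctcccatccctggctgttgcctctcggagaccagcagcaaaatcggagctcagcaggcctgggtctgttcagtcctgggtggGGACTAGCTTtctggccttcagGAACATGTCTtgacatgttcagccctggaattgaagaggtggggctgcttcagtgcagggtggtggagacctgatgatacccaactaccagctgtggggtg
Ccng1 (chr11:40755237-40755536, minus strand): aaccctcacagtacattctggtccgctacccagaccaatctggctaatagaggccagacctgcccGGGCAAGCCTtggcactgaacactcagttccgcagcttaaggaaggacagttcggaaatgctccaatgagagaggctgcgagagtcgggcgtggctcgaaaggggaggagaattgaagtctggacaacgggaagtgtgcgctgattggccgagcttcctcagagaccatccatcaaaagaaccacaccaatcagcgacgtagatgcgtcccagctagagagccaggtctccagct
Aen (chr7:78895677-78895976, plus strand): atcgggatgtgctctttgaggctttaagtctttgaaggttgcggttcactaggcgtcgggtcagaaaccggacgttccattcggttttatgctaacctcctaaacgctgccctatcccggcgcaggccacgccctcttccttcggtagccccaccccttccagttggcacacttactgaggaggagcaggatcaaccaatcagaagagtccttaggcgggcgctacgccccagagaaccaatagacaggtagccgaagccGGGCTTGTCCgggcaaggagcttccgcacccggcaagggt
Mdm2 (chr10:117710709-117711008, minus strand): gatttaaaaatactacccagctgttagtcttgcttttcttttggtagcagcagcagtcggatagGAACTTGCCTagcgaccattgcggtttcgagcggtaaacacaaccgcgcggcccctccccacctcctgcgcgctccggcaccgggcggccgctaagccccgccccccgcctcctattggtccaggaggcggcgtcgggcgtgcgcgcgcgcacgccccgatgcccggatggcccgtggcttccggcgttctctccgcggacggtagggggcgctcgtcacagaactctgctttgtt

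Calls in the lists of other damage response genes were near the share over all genes tested (1.74%). These lists do not hold every repair gene. Outside them, and named after their values were seen, Shld2 rose (log2 fold change 0.74 ± 0.12 SE, edgeR adjusted p = 0.0157). Mrnip fell (-0.78 ± 0.18 SE, edgeR adjusted p = 0.0459). Shld2 kept its call with each library left out and Mrnip did not. Without A0 replicates 1 and 2 together neither passed. An unadjusted p under 0.05 was found for 19.2% of all genes tested. Of 26 tested crosslink repair genes of the Fanconi and homologous recombination pathways, 0 passed the edgeR test in either direction (1 had an unadjusted p under 0.05), with a median log2 fold change of -0.00 and a range of -0.56 to 0.30. Of 40 other DNA repair and damage signalling genes 1 fell, the translesion polymerase gene Poli (log2 fold change -0.49 ± 0.11 SE, edgeR adjusted p = 0.036), which had 4.69 to 6.02 CPM (median 5.09) with busulfan and 5.78 to 8.49 CPM (median 7.76) without. Poli kept its call only without A10 replicate 3 or BA10 replicate 1. Of these 40 genes 5 had an unadjusted p under 0.05, and Chek1, a kinase of the replication checkpoint, had the largest log2 fold change. Chek1 had 0.937 to 1.77 CPM (median 1.01) with busulfan and 0.235 to 0.924 CPM (median 0.375) without, with no overlap, but did not pass (1.30 ± 0.32 SE, edgeR adjusted p = 0.0631).

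Genes of busulfan conjugation and of the oxidative stress response were examined in the same way, beside the same shares of 1.74% and 19.2%. Of 26 tested glutathione transferase and glutathione synthesis genes 0 passed (3 at an unadjusted p under 0.05), with a median of -0.03. Their summed level was 8814 to 9901 CPM (median 9291) with busulfan and 8130 to 12593 CPM (median 10788) without. Gstp1, an abundant glutathione transferase whose close copy Gstp2 may share its reads, had 1329 to 2764 CPM (median 1971) with busulfan and 1815 to 5088 CPM (median 3077) without. It did not pass in the pooled test (log2 fold change -0.64 ± 0.25 SE, edgeR adjusted p = 0.2). In BA0 compared to A0 it fell (-1.15 ± 0.30 SE, edgeR adjusted p = 0.0467). Its A0 libraries had 4575, 5088 and 2942 CPM, so A0 replicates 1 and 2 were the highest. That comparison called 4 genes in all without A0 replicate 1, and 4 without A0 replicate 2. Of 25 antioxidant and Nrf2 target genes 1 rose, and this was Nfe2l2, which encodes Nrf2 itself. Nfe2l2 had 72.7 to 106 CPM (median 92.2) in the busulfan libraries, against 37.9 to 69.1 CPM (median 57.8) in the others, with no overlap between the groups. Its log2 fold change was 0.72 ± 0.11 (SE, edgeR adjusted p = 0.0121) and it passed in each of the 12 fits that left out 1 library. Without A0 replicates 1 and 2 together Nfe2l2 did not pass (0.59, edgeR adjusted p = 0.065). The median of the whole list was -0.11, and 17 of its 25 genes had a negative log2 fold change. Over all genes tested 50.8% had a positive one. Cytochrome P450 genes of families 1 to 3 (45 tested) and the glucuronosyl- and sulfotransferase genes (22 tested) had 0 calls in either direction, with 9 and 1 genes at an unadjusted p under 0.05.

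By the selection rule, the called genes whose 6 and 6 libraries did not overlap and whose mean reached 1 CPM were ranked by fold change, and 15 were taken on each side. Banp, a nuclear protein that binds CpG-containing DNA, had the smallest p of all genes. Its values were 11.5, 9.63 and 16.3 CPM in BA0 livers and 19.8, 15.9 and 19.2 CPM in BA10 livers, against 3.08, 4.97 and 3.45 CPM in A0 livers and 4.76, 5.00 and 8.09 CPM in A10 livers. The log2 fold change was 1.66 ± 0.18 (SE, edgeR adjusted p = 0.00671). Banp rose by nearly the same amount without AOS (1.70, adjusted p = 0.0155) and with it (1.62, adjusted p = 0.0445). Rasgef1b, a guanine nucleotide exchange factor of the Ras family, had 17.0 to 57.8 CPM (median 28.6) with busulfan and 8.09 to 13.3 CPM (median 12) without, a log2 fold change of 1.58 ± 0.20 (SE, edgeR adjusted p = 0.0097). It too passed at both AOS levels (1.35, adjusted p = 0.0294, without AOS and 1.80, adjusted p = 0.0412, with AOS).

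Thbs1, the matrix glycoprotein thrombospondin 1, had 0.879 to 3.14 CPM (median 1.47) with busulfan and 0.242 to 0.696 CPM (median 0.432) without (log2 fold change 1.90 ± 0.31 SE, edgeR adjusted p = 0.0157). Ip6k2, an inositol hexakisphosphate kinase, had 24.7 to 38.1 CPM (median 31.1) with busulfan and 8.66 to 23.3 CPM (median 12.7) without (1.22 ± 0.16 SE, adjusted p = 0.0097). Irf2bp2, a corepressor that partners the interferon regulatory factor Irf2, had 43.8 to 86.2 CPM (median 60.6) with busulfan and 20.5 to 42.3 CPM (median 24.3) without (1.12 ± 0.19 SE, adjusted p = 0.017). In Ip6k2 and Irf2bp2 the highest library without busulfan was A10 replicate 3. Flrt1, a transmembrane protein with fibronectin and leucine-rich repeats, rose by 1.39 ± 0.21 (SE, edgeR adjusted p = 0.0131) and Plekhg1 by 1.03 ± 0.14 (SE, edgeR adjusted p = 0.00977). The remaining higher genes were Cdkn1a and Eda2r, Armcx4 (1.21), Mmp2 (1.11), Per2 (1.06), Fam102b (1.04), Cplane1 (1.02) and AA986860 (1.34). Of these 15 genes, Eda2r, Cdkn1a, Thbs1, Banp, Rasgef1b, Flrt1, Ip6k2, Irf2bp2 and Plekhg1 kept the call with each library left out. Fam102b lost it without any library but A10 replicate 3, and AA986860, Armcx4, Mmp2, Per2 and Cplane1 lost it without 1 to 7 of the libraries, most often A0 replicate 2 and A10 replicate 2 (highest adjusted p = 0.0711 for AA986860, 0.0593 for Armcx4, 0.0594 for Mmp2, 0.0597 for Per2 and 0.0549 for Cplane1). Without A0 replicates 1 and 2 together the call was lost for 12 of the 15.

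The lower genes changed less. Bmf, a death-promoting member of the Bcl-2 family, had 0.754 to 2.56 CPM (median 1.45) in the busulfan libraries, against 2.71 to 5.00 CPM (median 3.63) in the others (log2 fold change -1.20 ± 0.26 SE, edgeR adjusted p = 0.0366). Id2, an inhibitor of helix-loop-helix transcription factors, had 34.5 to 59.2 CPM (median 51.4) with busulfan and 66.3 to 124 CPM (median 98.0) without (-0.91 ± 0.18 SE, adjusted p = 0.0256). Pim1, a serine/threonine kinase of growth signalling, had 2.75 to 6.64 CPM (median 4.32) with busulfan and 6.76 to 11 CPM (median 8.04) without (-0.94 ± 0.18 SE, adjusted p = 0.0256). In Pim1 the nearest libraries of the 2 groups were 6.64 and 6.76 CPM, so the groups were separated by a narrow gap. Inhbe, which encodes the activin E subunit made by hepatocytes, had 11.5 to 27.2 CPM (median 17.8) with busulfan and 27.6 to 39.6 CPM (median 29.1) without (-0.77 ± 0.15 SE, adjusted p = 0.0242). Smad7, an inhibitory Smad of the transforming growth factor β pathway, had 3.64 to 6.26 CPM (median 5.10) with busulfan and 6.93 to 10.0 CPM (median 8.26) without (-0.73 ± 0.15 SE, adjusted p = 0.027). Lipe, hormone-sensitive lipase, had 5.59 to 7.39 CPM (median 6.40) with busulfan and 7.70 to 14.5 CPM (median 9.87) without (-0.66 ± 0.14 SE, adjusted p = 0.0366).

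Gata4, Foxa2 and Cebpa encode transcription factors. Gata4 had 12.2 to 16.0 CPM (median 14.2) with busulfan and 17.0 to 28.1 CPM (median 22.3) without, with no overlap (log2 fold change -0.64 ± 0.12 SE, edgeR adjusted p = 0.0255). Foxa2, a pioneer factor of the hepatocyte, had 9.79 to 19.6 CPM (median 15) with busulfan and 16.8 to 40.5 CPM (median 28.7) without (-1.0 ± 0.19 SE, adjusted p = 0.0256). Cebpa, which sets the expression of many liver enzymes, had 105 to 196 CPM (median 139) with busulfan and 184 to 228 CPM (median 211) without (-0.56 ± 0.12 SE, adjusted p = 0.0448). Foxa2 and Cebpa overlapped between the groups, and they were the 2 members of the hepatocyte list of 29 genes that fell, while Tat rose. Over all genes tested 0.432% fell and 1.3% rose. The other lower genes of the selection were Hba-a2 (described with the erythroid genes), Mrm1 (-0.93), Frat1 (-0.87), Fbxo21 (-0.83), Slc8b1 (-0.78), Zfp703 (-0.69), Pcsk4 (-0.65) and a gene known by the identifier BGIG10090_47935 alone (-0.79). Calls of the lower genes changed when a library was left out. All 15 lost the call without BA0 replicate 2, 14 without A0 replicate 3, 14 without A10 replicate 2, 13 without BA10 replicate 3, 12 without BA0 replicate 3, 11 without A0 replicate 2, 9 without BA10 replicate 1, 8 without A0 replicate 1, 8 without A10 replicate 1, 4 without BA10 replicate 2, 3 without BA0 replicate 1 and 0 without A10 replicate 3 (highest adjusted p = 0.105). Without A0 replicates 1 and 2 together all 15 lost the call (highest edgeR adjusted p = 0.178). Foxa2 and Cebpa lost it without 8 and 10 libraries (highest adjusted p = 0.0708 and 0.104).

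**Figure D2:**
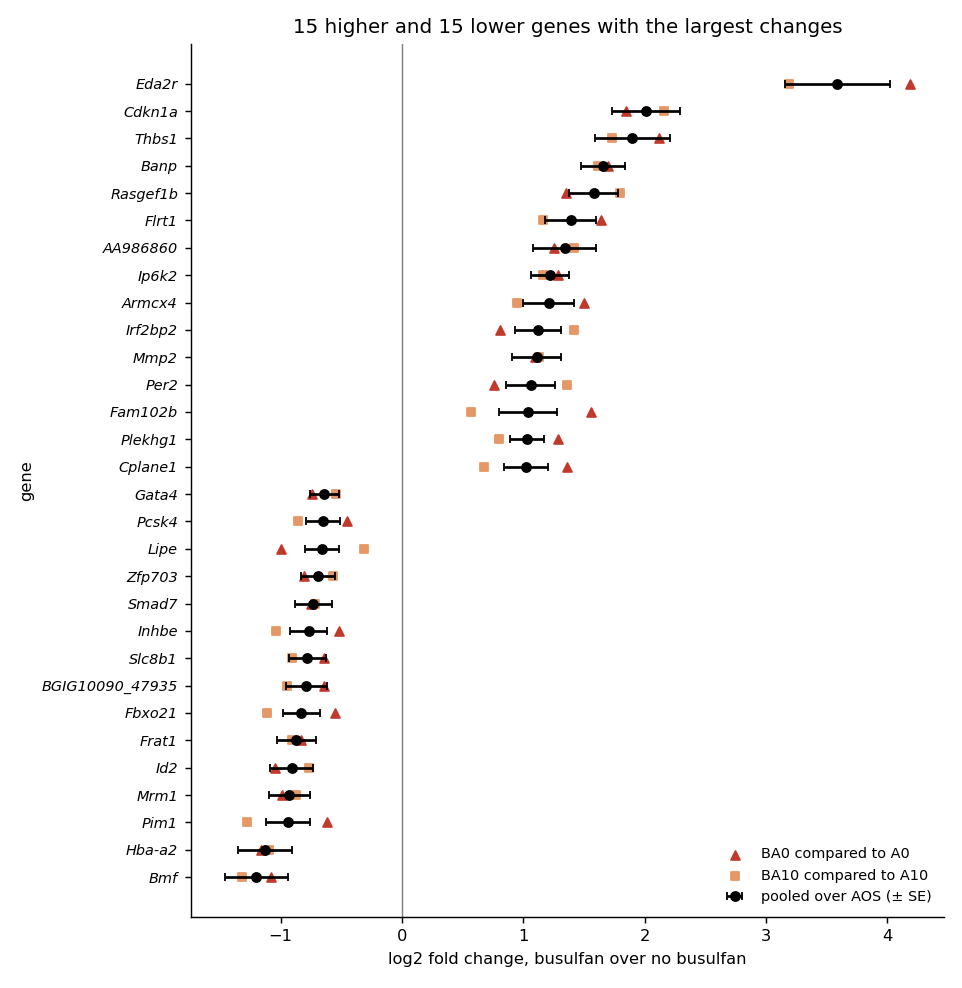
Log2 fold change of the 15 top-ranked higher and 15 top-ranked lower genes, pooled over AOS (black points, ± SE), in BA0 compared to A0 (triangles) and in BA10 compared to A10 (squares). The pooled values run from -1.20 for Bmf to 3.59 for Eda2r. Only genes without overlap between the groups were selected, so each had to have the same sign at both AOS levels.

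Of the 225 genes, 41 kept the call with each of the 12 libraries left out. Some of them that lie outside the selection, with Palld, were named after their values were seen. Fyn, a Src family kinase, had 7.97 to 10.5 CPM (median 9.21) with busulfan and 3.14 to 7.68 CPM (median 4.44) without (log2 fold change 0.95 ± 0.14 SE, edgeR adjusted p = 0.0113). P4ha1, a subunit of the collagen prolyl 4-hydroxylase, had 17.7 to 66.6 CPM (median 41.2) with busulfan and 10.2 to 30.6 CPM (median 12.2) without (1.43 ± 0.24 SE, adjusted p = 0.0157). On the lower side, Fzd7, a Wnt receptor, fell by 0.70 on the log2 scale (SE 0.11, edgeR adjusted p = 0.015) and Bckdk, the kinase that inactivates branched-chain keto acid dehydrogenase, fell by 0.60 (SE 0.10, edgeR adjusted p = 0.0157). Ifnar2, a receptor subunit for type I interferons, had 45.9 to 52.9 CPM (median 50.2) with busulfan and 59.0 to 73.5 CPM (median 65.5) without, with no overlap (-0.39 ± 0.06 SE, adjusted p = 0.0158). Without A0 replicates 1 and 2 together Fyn, P4ha1, Fzd7, Bckdk and Ifnar2 lost the call. Their edgeR adjusted p was then 0.0728, 0.0909, 0.065, 0.065 and 0.0737. Palld, a scaffold protein of actin filaments, passed without A0 replicates 1 and 2 (0.86, adjusted p = 0.0499), and in the full set it had 74.2 to 108 CPM (median 96.1) with busulfan and 44.7 to 70 CPM (median 61.2) without (0.67 ± 0.13 SE, adjusted p = 0.0256). Palld lost its call without A0 replicate 3, A10 replicate 1, A10 replicate 2, BA0 replicate 2, BA0 replicate 3, BA10 replicate 1 or BA10 replicate 3 (highest adjusted p = 0.0594).

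The cyclin D genes Ccnd1 and Ccnd2 rose, and no other gene of the cell cycle list was called. Ccnd2 had 14.0 to 17.8 CPM (median 16.2) in the busulfan libraries, against 6.35 to 13.5 CPM (median 7.91) in the others, and the groups did not overlap (log2 fold change 0.88 ± 0.13 SE, edgeR adjusted p = 0.0121). Ccnd1 had 14.7 to 38.1 CPM (median 23.4) with busulfan and 4.02 to 17.0 CPM (median 9.43) without (1.42 ± 0.26 SE, adjusted p = 0.0224). Ccnd2 kept its call with each library left out, while Ccnd1 lost it without A0 replicate 3, A10 replicate 1, A10 replicate 2, BA0 replicate 2 or BA0 replicate 3 (highest adjusted p = 0.0594). Without A0 replicates 1 and 2 together neither passed (edgeR adjusted p = 0.0905 for Ccnd2 and 0.0909 for Ccnd1). These were the 2 calls among 46 tested cell cycle and DNA replication genes (1.3% of all genes tested rose). The median of the list was -0.09 and its lowest log2 fold change -0.88. An unadjusted p under 0.05 was found for 13 of the 46, against 19.2% of all genes tested.

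Glucocorticoid-responsive genes were another group with calls. Of 17 tested glucocorticoid and metallothionein genes 5 rose (Cdkn1a, Per1, Tat, Tsc22d3 and Lpin1, against 1.3% of all genes tested) and 0 fell. No metallothionein gene was among the 5, and Cdkn1a was already counted with the p53 targets. The median log2 fold change was 0.51, with 11 genes positive and 6 negative (50.8% of all genes tested were positive). The summed level of the list was 3442 to 5564 CPM (median 4518) with busulfan and 2329 to 4193 CPM (median 2693) without. Per1, a repressor in the circadian clock that glucocorticoids also induce, had 9.79 to 27.8 CPM (median 22.8) with busulfan and 5.03 to 11 CPM (median 6.14) without (log2 fold change 1.48 ± 0.21 SE, edgeR adjusted p = 0.00977). Its paralog Per2 had 17.5 to 35.3 CPM (median 20.3) with busulfan and 7.66 to 14.3 CPM (median 11) without (1.06 ± 0.20 SE, adjusted p = 0.0233). Per1 and Per2 were the 2 calls among 20 tested clock genes (1.3% of all genes tested rose), and the median of that list was 0.04.

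Tat, the tyrosine aminotransferase of amino acid breakdown, had 1376 to 2416 CPM (median 1867) with busulfan and 589 to 1265 CPM (median 972) without, with no overlap (log2 fold change 0.94 ± 0.18 SE, edgeR adjusted p = 0.0242). Igfbp1, a secreted binding protein of insulin-like growth factors that insulin represses, had 41.5, 63.1 and 86.9 CPM in BA0 livers and 339, 354 and 231 CPM in BA10 livers, against 15.1, 31.5 and 25.9 CPM in A0 livers and 22.3, 19.9 and 55.5 CPM in A10 livers. The BA10 libraries were far above all others, and the log2 fold change was 3.24 with AOS (adjusted p = 0.0203) and 1.40 without (adjusted p = 0.0599). The pooled value was 2.33 ± 0.41 (SE, edgeR adjusted p = 0.0208). Lpin1, a phosphatidate phosphatase of fat synthesis, had 23.2, 172 and 51.4 CPM in BA0 livers and 138, 119 and 131 CPM in BA10 livers, against 34.9, 23.8 and 27.0 CPM in A0 livers and 35.1, 26.2 and 28.4 CPM in A10 livers. All busulfan libraries but BA0 replicate 1 were above all the others, and the log2 fold change was 1.82 ± 0.37 (SE, edgeR adjusted p = 0.029). Tsc22d3, the glucocorticoid-induced leucine zipper gene, rose by 1.01 ± 0.20 (SE, edgeR adjusted p = 0.0279), and Irs2, an adaptor of the insulin receptor, by 0.95 ± 0.20 (SE, edgeR adjusted p = 0.0337). Noct, the deadenylase-like clock output nocturnin, was named after its values were seen and rose by 1.46 ± 0.28 (SE, edgeR adjusted p = 0.0252). Cdkn1a, Per1 and Igfbp1 kept the call with each library left out. Without A0 replicates 1 and 2 together these genes lost it (edgeR adjusted p = 0.0533, 0.065 and 0.0728). Per2, Tat, Lpin1, Tsc22d3, Irs2 and Noct each lost it without 5 to 10 of the 12 libraries (highest adjusted p = 0.0921, for Irs2), and the count of the glucocorticoid list was 2 to 6 in these fits and 0 without A0 replicates 1 and 2. Time of day at collection was not stated.

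Chaperone genes formed another group with higher values. Chaperones of the cytosol fold new and damaged proteins, and heat shock factor 1 switches on many of them. Of 27 tested genes 7 rose (Dnajb4, Hspa4l, Chordc1, Dnaja1, Bag3, Hsph1 and Hsp90aa1, against 1.3% of all genes tested) and 0 fell, at a median log2 fold change of 0.36, and 25 of the 27 had a positive value, against 50.8% of all genes tested. The summed level was 3992 to 8229 CPM (median 5502) with busulfan and 3283 to 5310 CPM (median 3748) without. It was 3992, 5053 and 5021 CPM in BA0 livers and 8229, 5952 and 6221 CPM in BA10 livers. The median log2 fold change of the list was 0.19 without AOS and 0.69 with AOS. All 6 busulfan libraries lay above the 6 others for 0 of the 27 genes (0.748% of all genes tested). Hsph1, a large Hsp70 relative that exchanges nucleotides on Hsp70, had 80.8, 137 and 143 CPM in BA0 livers and 336, 191 and 217 CPM in BA10 livers, against 46.4, 54.3 and 42.0 CPM in A0 livers and 30.6, 66.8 and 163 CPM in A10 livers. A10 replicate 3 was thus above 3 of the 6 busulfan libraries, while the other 5 libraries without busulfan were below all of them (log2 fold change 1.43 ± 0.32 SE, edgeR adjusted p = 0.0459). The same library was the highest without busulfan for Dnaja1, a J-domain cochaperone, which had 211 to 532 CPM (median 342) with busulfan and 147 to 333 CPM (median 172) without (0.78 ± 0.16 SE, adjusted p = 0.0324). Bag3, a cochaperone of selective autophagy, had 54.5 to 175 CPM (median 98.8) with busulfan and 25.4 to 66.1 CPM (median 45.7) without (1.17 ± 0.25 SE, adjusted p = 0.0362). Hsp90aa1, the inducible Hsp90, had 326 to 1140 CPM (median 563) with busulfan and 205 to 502 CPM (median 276) without (1.00 ± 0.23 SE, adjusted p = 0.0474). Hspa8, the constitutive Hsp70, did not pass, with 836 to 1925 CPM (median 1382) and 594 to 1540 CPM (median 725) (0.71 ± 0.20 SE, adjusted p = 0.0912).

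A heat shock element is built from inverted repeats of GAA, and the same promoter windows were searched for adjacent pairs of them, written GAANNTTC or TTCNNGAA, each of which reads the same on both strands and can overlap the other. Such a pair was found for 14 of the 22 tested chaperone genes with a window, against 4587 of 27025 genes (17%). The list was chosen for the function of its genes, so its share says nothing about busulfan. Of the genes that rose, Bag3, Chordc1, Dnaja1, Dnajb4 and Hsph1 held it and Hspa4l did not, and Hsp90aa1 had no window here. In Chordc1, which encodes an Hsp90-binding protein, 4 pairs overlap in 1 run at the start site. The sequences show 4 of these genes with the pairs in capitals.
Hsph1 (chr5:149636287-149636586, minus strand): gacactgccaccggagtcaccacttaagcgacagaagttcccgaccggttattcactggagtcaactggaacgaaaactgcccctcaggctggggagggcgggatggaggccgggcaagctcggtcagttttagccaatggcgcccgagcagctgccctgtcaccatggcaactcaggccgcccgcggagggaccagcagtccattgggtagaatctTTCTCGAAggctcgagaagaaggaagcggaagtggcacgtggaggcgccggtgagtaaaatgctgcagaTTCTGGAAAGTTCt
Chordc1 (chr9:18292017-18292316, plus strand): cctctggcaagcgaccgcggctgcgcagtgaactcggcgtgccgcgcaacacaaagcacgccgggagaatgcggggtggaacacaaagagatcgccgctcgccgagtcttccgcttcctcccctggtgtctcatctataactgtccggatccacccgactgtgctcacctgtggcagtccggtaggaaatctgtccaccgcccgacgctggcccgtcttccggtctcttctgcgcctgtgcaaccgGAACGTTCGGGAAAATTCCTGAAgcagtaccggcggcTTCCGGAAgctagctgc
Dnaja1 (chr4:40722218-40722517, plus strand): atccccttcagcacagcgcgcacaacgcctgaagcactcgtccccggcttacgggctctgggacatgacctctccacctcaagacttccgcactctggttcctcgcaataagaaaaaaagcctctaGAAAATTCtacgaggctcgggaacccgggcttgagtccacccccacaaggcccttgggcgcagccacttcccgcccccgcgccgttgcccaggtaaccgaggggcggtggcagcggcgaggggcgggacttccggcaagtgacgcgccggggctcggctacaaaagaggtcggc
Bag3 (chr7:128523333-128523632, plus strand): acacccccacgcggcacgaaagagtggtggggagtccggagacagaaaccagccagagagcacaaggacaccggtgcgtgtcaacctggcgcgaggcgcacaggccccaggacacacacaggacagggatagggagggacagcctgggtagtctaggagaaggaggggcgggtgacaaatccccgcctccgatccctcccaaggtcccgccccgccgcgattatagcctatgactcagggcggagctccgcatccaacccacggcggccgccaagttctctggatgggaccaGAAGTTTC

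Endoplasmic reticulum stress genes were examined next. This response to misfolded secretory proteins runs through the sensors Perk, Ire1 and Atf6. Of 31 tested genes 4 rose (Ddit3, Herpud1, Dnajb9 and Eif2ak3, against 1.3% of all genes tested) and 0 fell, with a median log2 fold change of 0.25. Herpud1, a component of the degradation machinery of the endoplasmic reticulum, had 251, 496 and 271 CPM in BA0 livers and 595, 462 and 489 CPM in BA10 livers, against 140, 151 and 82.5 CPM in A0 livers and 131, 190 and 365 CPM in A10 livers. Only A10 replicate 3 reached into the range of the busulfan libraries (log2 fold change 1.31 ± 0.26 SE, edgeR adjusted p = 0.026). Dnajb9, a cochaperone of the endoplasmic reticulum, had 122 to 212 CPM (median 167) with busulfan and 42.5 to 175 CPM (median 66.3) without (1.18 ± 0.24 SE, adjusted p = 0.0329). Eif2ak3, which encodes the sensor Perk, had 21.2 to 30.0 CPM (median 25.6) with busulfan and 7.10 to 29.4 CPM (median 10.7) without (1.02 ± 0.23 SE, adjusted p = 0.0412). Ddit3, the stress transcription factor Chop, had 6.88 to 9.85 CPM (median 8.90) with busulfan and 3.08 to 7.39 CPM (median 4.20) without (0.87 ± 0.16 SE, adjusted p = 0.0224). In Dnajb9, Eif2ak3 and Ddit3 the overlap also came from A10 replicate 3 alone. Hspa5, the main Hsp70 of the endoplasmic reticulum, did not pass (0.69 ± 0.23 SE, adjusted p = 0.143), with 1368 CPM in A10 replicate 3, against 491 to 603 CPM in the other libraries without busulfan. The number of higher genes was 10 of 27 chaperone genes and 14 of 31 endoplasmic reticulum genes without A10 replicate 3. It was 0 of 27 without A0 replicate 1, A10 replicate 2, BA0 replicate 2, BA0 replicate 3 or BA10 replicate 3, and 0 of 31 without A0 replicate 2, A0 replicate 3, A10 replicate 2, BA0 replicate 2 or BA10 replicate 3. Without A0 replicates 1 and 2 together both counts were 0, with medians of 0.57 and 0.29.

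**Figure D3:**
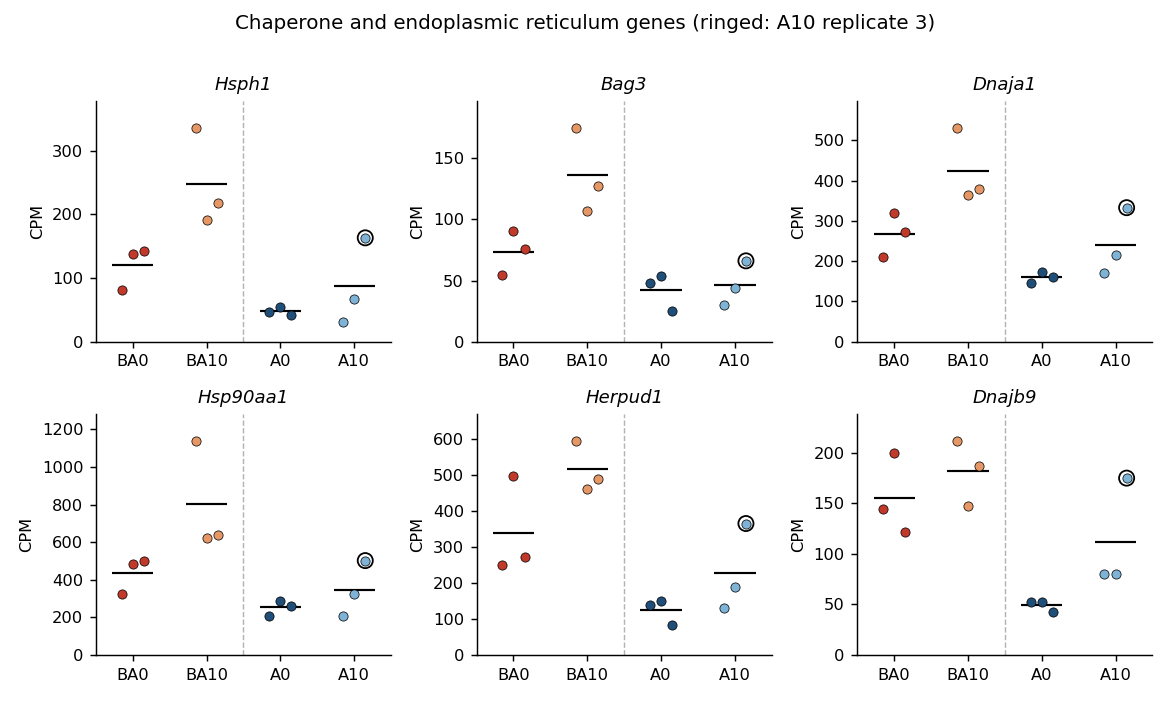
CPM of 4 chaperone genes and 2 genes of endoplasmic reticulum stress in each of the 12 libraries (points), with the mean of each group of 3 as a line and A10 replicate 3 ringed. For Herpud1 the ringed library is at 365 CPM and the other libraries without busulfan at 82.5 to 190 CPM, against 251 to 595 CPM with busulfan.

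Most markers of endothelial cells had positive log2 fold changes. In bulk liver, more cells of a type and more RNA per cell cannot be told apart. Of 36 tested sinusoidal and vascular endothelial markers 7 rose, against 1.3% of all genes tested, and 0 fell. The 7 were Clec4g, Gpr182, Ehd3, Kdr, Stab1, Ptprb and Stab2. Of the 36 markers 33 had a positive log2 fold change (median 0.47), against 50.8% of all genes tested. Their summed level was 1046 to 1318 CPM (median 1163) in the busulfan libraries, against 806 to 1160 CPM (median 924) in the others, and the median change was 0.66 without AOS and 0.28 with it. Clec4g, a lectin of sinusoidal endothelium, had 34.1, 38.1 and 39.9 CPM in BA0 livers and 44.1, 46.2 and 47.1 CPM in BA10 livers, against 27.2, 26.2 and 24.7 CPM in A0 livers and 32.7, 36.4 and 40.3 CPM in A10 livers. At each AOS level the 3 busulfan libraries lay above the 3 without (log2 fold change 0.42 ± 0.07 SE, edgeR adjusted p = 0.0205). Kdr, a receptor of vascular endothelial growth factor, had 34.8 to 52.9 CPM (median 46.3) with busulfan and 20.4 to 42.5 CPM (median 28.8) without (0.59 ± 0.12 SE, adjusted p = 0.0337). Stab2, a hyaluronan scavenger receptor, had 42.4 to 63.7 CPM (median 46.5) with busulfan and 23 to 48.5 CPM (median 32.9) without (0.56 ± 0.13 SE, adjusted p = 0.048). The count of 7 was 19 without A10 replicate 3, 0 without A0 replicate 3, 1 without A0 replicate 2, A10 replicate 2, BA0 replicate 2, BA0 replicate 3 or BA10 replicate 3, 2 without BA0 replicate 1, and 3 without A0 replicate 1 or A10 replicate 1. It was 0 without A0 replicates 1 and 2, where the median stayed at 0.41.

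Of 35 tested stellate cell, matrix and smooth muscle genes 2 rose, Mmp2, a gelatinase, and Rgs5, a pericyte regulator of G protein signalling. Over all genes tested 1.3% rose. A positive log2 fold change was found for 34 of the 35 (median 0.21), against 50.8% of all genes tested. The medians were 0.50 without AOS and -0.07 with AOS. Mmp2 had 1.98 to 4.41 CPM (median 2.98) with busulfan and 1.06 to 1.94 CPM (median 1.42) without (log2 fold change 1.11 ± 0.20 SE, edgeR adjusted p = 0.0224), and Rgs5 had 66.4 to 92.2 CPM (median 69.1) with busulfan and 39.4 to 63.9 CPM (median 51.7) without (0.54 ± 0.12 SE, adjusted p = 0.0459). Neither overlapped, but Rgs5 kept its call only without A10 replicate 3, and Mmp2 lost it without A0 replicate 1, A0 replicate 2, A10 replicate 2, BA0 replicate 2, BA0 replicate 3 or BA10 replicate 3 (highest adjusted p = 0.111 and 0.0594). Of 29 Kupffer cell and macrophage markers 0 passed and 3 had an unadjusted p under 0.05, against 19.2% of all genes tested. The log2 fold change was positive for 23 of them and negative for 6. Their median change was 0.43 without AOS and 0.04 with AOS. Their summed level was 620 to 876 CPM (median 682) with busulfan and 459 to 904 CPM (median 628) without.

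Erythroid transcripts were the list with the lowest median. Of 11 tested genes 1 fell (0.432% of all genes tested fell), with a median log2 fold change of -0.73. The summed level was 209 to 625 CPM (median 395) in the busulfan libraries, against 376 to 852 CPM (median 669) in the others. Hba-a2, an alpha-globin gene, had 14.9, 13 and 9.12 CPM in BA0 livers and 15.5, 8.64 and 8.38 CPM in BA10 livers, against 19.9, 33.7 and 28.8 CPM in A0 livers and 33.5, 16.3 and 19.5 CPM in A10 livers. The highest busulfan library was 15.5 CPM and the lowest of the others 16.3 CPM (log2 fold change -1.13 ± 0.22 SE, edgeR adjusted p = 0.0259). Its near-identical copy Hba-a1 had 89.6 to 213 CPM (median 150) with busulfan and 186 to 425 CPM (median 302) without and did not pass (-1.01 ± 0.25 SE, adjusted p = 0.0667), and reads of the 2 genes may be shared between them. Hbb-b1, a beta-globin gene, did not pass either (-0.73 ± 0.34 SE, adjusted p = 0.271). Hba-a2 lost its call without A0 replicate 2, A0 replicate 3, A10 replicate 1, BA0 replicate 2, BA0 replicate 3 or BA10 replicate 3 (highest adjusted p = 0.0666).

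The metabolic lists below held few calls, beside 1.74% of all genes tested. Of 41 tested fatty acid oxidation and Ppara target genes 1 fell, Slc25a20, the carnitine-acylcarnitine carrier of mitochondria, which had 35.2 to 48.0 CPM (median 43.4) with busulfan and 50.8 to 58.9 CPM (median 54.4) without. The groups did not overlap, at a log2 fold change of -0.35 ± 0.08 (SE, edgeR adjusted p = 0.0413). Of the 41 genes 38 had a negative value (median -0.15), whereas 50.8% of all genes tested had a positive one. An unadjusted p under 0.05 was found for 12 of the 41, against 19.2% of all genes tested. Slc25a15, the ornithine carrier of the urea cycle, had 253 to 322 CPM (median 269) with busulfan and 201 to 238 CPM (median 218) without (0.34 ± 0.08 SE, adjusted p = 0.0459). Slc25a20 kept its call only without A10 replicate 3 or BA0 replicate 1, and Slc25a15 only without A10 replicate 3 (highest adjusted p = 0.0952 and 0.111). Genes of cholesterol synthesis (31 tested), bile acid synthesis and transport (26 tested), complement and coagulation (47 tested) and the acute phase (27 tested) had 0 calls, with medians of 0.03, -0.06, -0.07 and -0.06 and with 1, 1, 5 and 1 genes at an unadjusted p under 0.05.

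Several lists had medians that lay apart at the 2 AOS levels, differences that were not tested for the lists. The 41 type I interferon-stimulated genes had a median log2 fold change of 1.40 in BA0 compared to A0 and of -0.35 in BA10 compared to A10, and 0 passed the pooled test (2 at an unadjusted p under 0.05). The female-biased liver genes (17 tested) had medians of 1.66 without AOS and -0.02 with AOS. For the 19 major urinary protein genes the medians were -0.74 and -0.10. Again 0 passed (7 and 3 at an unadjusted p under 0.05). Over all genes tested 1.74% passed and 19.2% had an unadjusted p under 0.05. Cytosolic ribosomal protein genes (78 tested) and nuclear respiratory chain genes (76 tested) both had medians of -0.33 without AOS, and of 0.08 and 0.10 with AOS. A0 replicates 1 and 2 were the libraries with the strongest trends over gene length and GC content. Their part in the shifts without AOS was not tested.

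**Figure D4:**
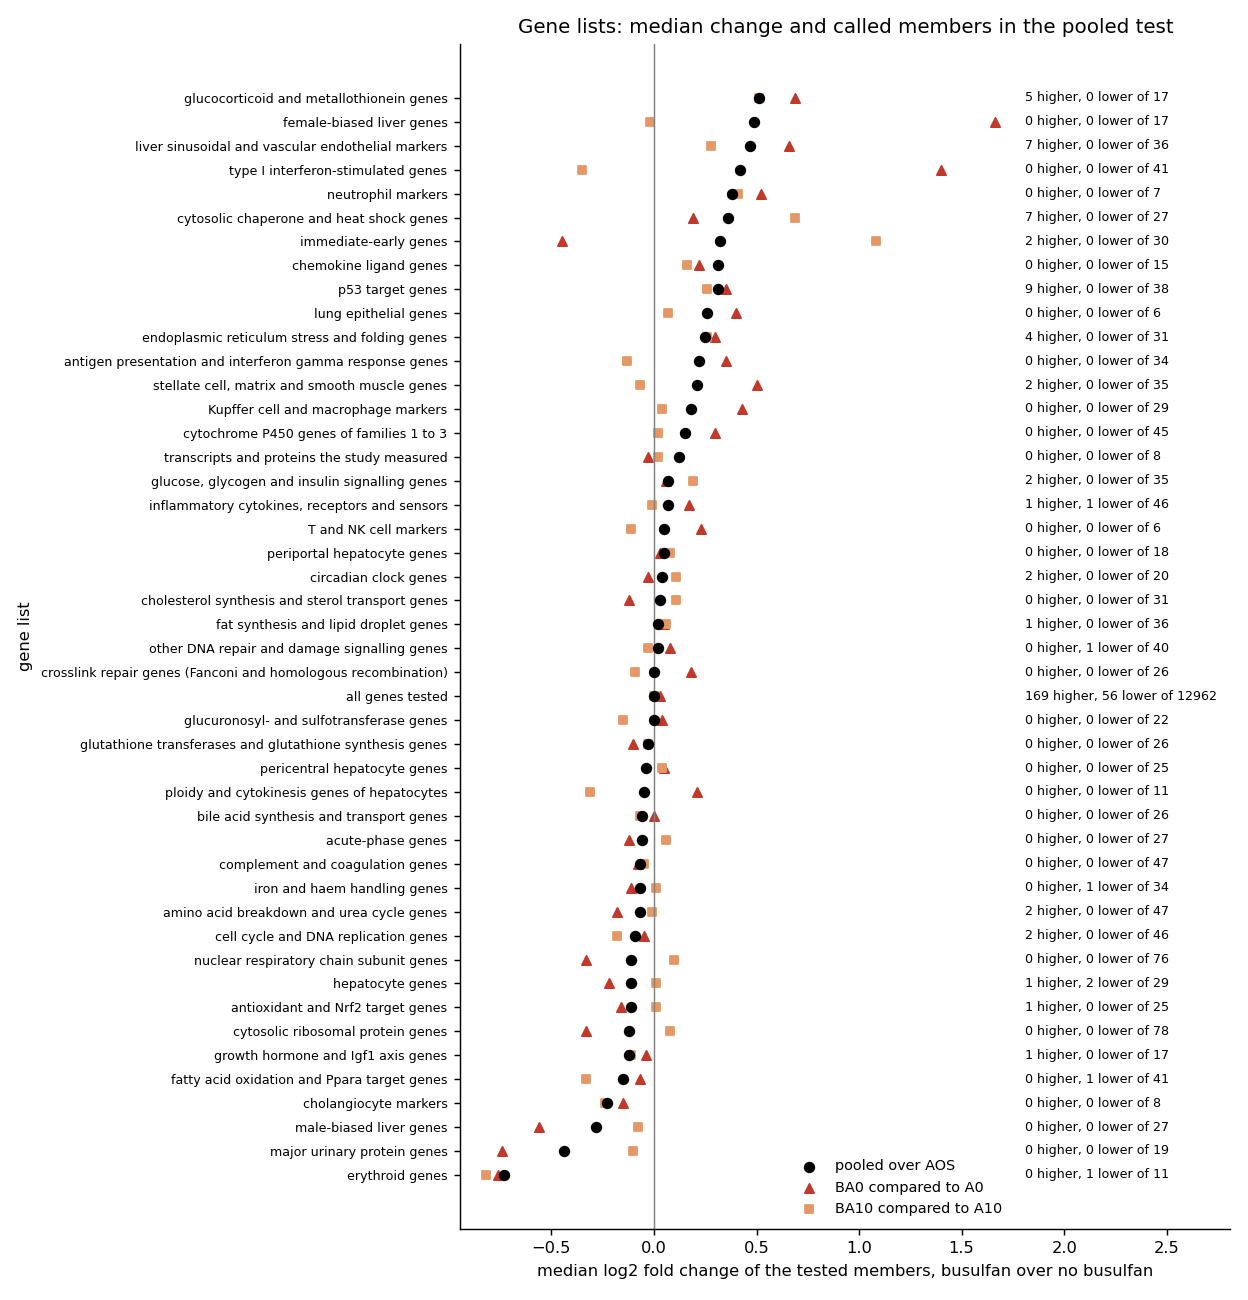
Median log2 fold change of the tested members of each gene list with 5 or more tested genes, pooled over AOS (circles), in BA0 compared to A0 (triangles) and in BA10 compared to A10 (squares), with the numbers called in the pooled test at the right. The p53 targets (9 higher of 38) had nearly the same median at both AOS levels (0.35 and 0.26), whereas the interferon-stimulated genes had 1.40 and -0.35.

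Inflammatory genes and some of the transcripts whose products the study measured were also examined. Of 46 tested inflammatory cytokine, receptor and sensor genes 1 rose and 1 fell, against 1.3% and 0.432% of all genes tested. Nfkbia, which encodes the inhibitor IκBα of NF-κB, had 20.9 to 40.0 CPM (median 27.1) with busulfan and 13 to 23.2 CPM (median 17.6) without (log2 fold change 0.70 ± 0.14 SE, edgeR adjusted p = 0.029), and the gene that fell was Ifnar2. Its transcript was also a target of the q-RT-PCR primers. For Nfkbia the call held when A0 replicate 2, A10 replicate 3 or BA0 replicate 3 was left out, and in none of the other 9 such fits. The list of transcripts of measured products does not hold all that were measured. Of its 11 transcripts 8 had enough reads, and 0 passed in either direction (1.74% of all genes tested passed). Except for Egr1, the study reported their products as protein levels, higher in BA0 than in A0 and lower in BA10 than in BA0. The pooled test is of RNA and takes BA0 and BA10 together, so it is not the same comparison. Stat3 (0.05 ± 0.07 SE), Il6ra (0.01 ± 0.11 SE), Sod1 (-0.14 ± 0.09 SE), Gpx1 (-0.16 ± 0.10 SE), Tgfb1 (0.21 ± 0.14 SE), Trib3 (0.20 ± 0.26 SE) and Il22ra1 (0.27 ± 0.17 SE) had log2 fold changes with edgeR adjusted p between 0.399 and 0.98. Ifng, Il6 and Tnf were not among the genes tested.

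Egr1, an early growth response transcription factor, was the 8th of these transcripts and differed most between the AOS levels. It had 1.11, 2.2 and 2.75 CPM in BA0 livers and 251, 126 and 178 CPM in BA10 livers, against 6.69, 4.84 and 3.15 CPM in A0 livers and 2.84, 2.41 and 9.24 CPM in A10 livers. The 3 BA10 libraries were far above the other 9, and the pooled test did not pass (log2 fold change 2.47 ± 1.23 SE, edgeR adjusted p = 0.296). With AOS the change was 5.25 ± 0.51 (SE, adjusted p = 0.00493), without AOS -1.26 ± 0.55 (SE, adjusted p = 0.161), and the difference of 6.52 passed (adjusted p = 0.00543). Among 30 tested immediate-early genes the median was 1.08 with AOS and -0.45 without. The pooled test called 2 as higher, against 1.3% of all genes tested. They were Btg2 and the phosphatase gene Dusp6 (1.36 ± 0.29 SE, edgeR adjusted p = 0.0337, highest adjusted p with a library left out 0.0954).

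The effect of busulfan was also tested at each AOS level. In BA0 compared to A0, 816 genes passed (6.3%), with 524 higher (4.04%) and 292 lower (2.25%). With upper-quartile scaling the split was 419 higher and 667 lower. In BA10 compared to A10, 16 genes passed (0.123%), with 12 higher (0.0926%) and 4 lower (0.0309%). Banp, Rasgef1b and Trp53inp1 passed in the same direction in both, and Junb and Ier2 in opposite directions, so that 31.2% of the BA10 list and 0.613% of the BA0 list were shared. The difference of the busulfan effect between the AOS levels passed for 7 genes (0.054%). The size of the BA0 list depended on the libraries. It was 4 genes without A0 replicate 1, 4 without A0 replicate 2, 1875 without A0 replicate 3, 12 without BA0 replicate 3, 57 without BA0 replicate 2 and 37 after trends over gene length and GC content were removed. The BA10 list was 102 genes without A10 replicate 3, and 0 to 2 without A10 replicate 1, A10 replicate 2, BA10 replicate 1 or BA10 replicate 2. Across all genes the 2 changes had a Pearson correlation of 0.11 and the same sign in 54.3% of genes, which are not independent replicates.

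The number of genes called in the pooled test moved with single libraries in the same way. It was 954 without A10 replicate 3, and between 51 (without A10 replicate 2) and 217 (without BA10 replicate 2) with any other library left out. All 225 genes were among the 954, and 50 of the 51 genes called without A10 replicate 2 were among the 225. The p53 targets Cdkn1a, Trp53inp1, Ccng1, Aen and Zmat3 passed in every one of these 12 fits. So did Banp, Rasgef1b, Per1, Igfbp1, Nfe2l2 and Ccnd2. Eda2r and Phlda3 passed in all of them too, but met the read filter through busulfan libraries alone and had to differ. Without A0 replicates 1 and 2 together Banp, Rasgef1b and Eda2r passed, and the other genes named here did not.

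**Figure D5:**
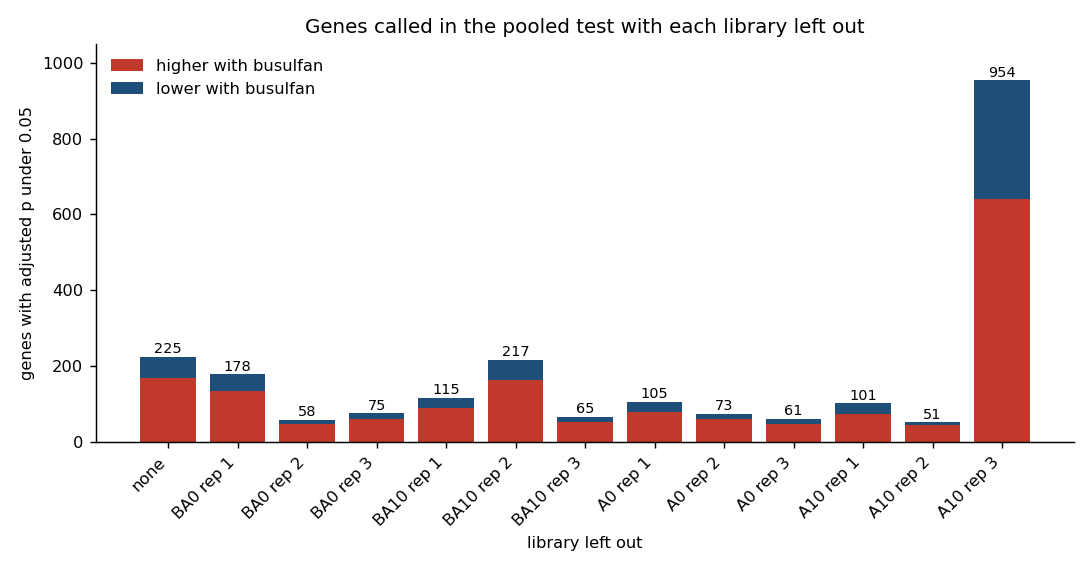
Number of genes with an adjusted p under 0.05 in the pooled test with all 12 libraries and with each library left out (bars, split into genes higher and lower with busulfan). The count was 225 with all libraries, 51 without A10 replicate 2 and 954 without A10 replicate 3.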

How the data were processed

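Liver RNA was extracted with TRIzol, poly(A) RNA was sequenced on an Illumina HiSeq instrument, and reads were mapped with SOAPaligner 2.20 by the authors; the build in the submitters' processing notes is mm10. The deposited table gives 1 estimated count per gene and library, of which 78.6% to 80.3% were whole (tolerance 1e-06), and an RPKM value, from which the authors' gene length was recovered. How counting treated strand was, in these sources, not stated. The 8 columns of group means and the authors' own fold changes and p-values, which the study obtained with DEGseq, were not used. Estimated counts were rounded. CPM values are scaled by trimmed mean of M-values (TMM) factors over the genes kept.

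Busulfan was tested with edgeR 4.0.16 (quasi-likelihood test, TMM, busulfan and AOS as terms, 12 libraries, R 4.3.3), at a Benjamini-Hochberg adjusted p under 0.05. A fit with the 4 groups gave the effects at each AOS level and their difference. SE is the standard error of the log2 fold change. Counts were also simulated for 12962 genes. In the pooled comparison 84 of 100 genes changed by 1 on the log2 scale were called. Of those changed by 2, 100 of 100 were called, and there were 5 false calls. Only genes with a mean of at least 1 CPM were changed, and the spread followed the fitted trend. The departures of A0 replicates 1 and 2 and of A10 replicate 3 were not simulated. These rates therefore need not hold for the real libraries. Alternatives were RLE and upper-quartile factors, DESeq2 1.42.0, limma-voom (limma 3.58.1), other filters, no AOS term, a replicate block, corrections for gene length and GC content, and leaving out libraries.

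The genes named were the 15 higher and the 15 lower called genes ranked first by log2 fold change once those with overlapping groups or a mean under 1 CPM were set aside, the 4 members of each gene list with the smallest p, and 11 transcripts of products the study measured. Members and lists were chosen with earlier results of these data known. GENCODE M21 matched 16373 of 17871 genes (91.6%).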

Additional observations from a re-analysis of the deposited data

Results flagged for a closer look

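Of 204 groups of 6 libraries checked over 102 genes, 9 held a library that stood apart from the others by Dixon's criterion on the log2 CPM scale, of which chance gives about 1 in 20 groups. In 6 of these 9 the library was A10 replicate 3 among the libraries without busulfan. It was at 1540 CPM for Hspa8, 1368 CPM for Hspa5, 65.7 CPM for Chordc1, 12.1 CPM for Tspyl2, which encodes a nucleosome assembly protein-like factor, and 2.6 CPM for Fos, in each case the highest of the 6, and at 1.68 CPM for Mrm1, the lowest of the 6. Inhbe was highest in A0 replicate 3 at 39.6 CPM among the libraries without busulfan, and BA10 replicate 1 was the highest busulfan library for Il6ra at 25.6 CPM and for Chek1 at 1.77 CPM.

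The effect of busulfan differed between the AOS levels for 7 genes, tested as an interaction in edgeR with adjustment over all genes. With AOS minus without AOS, the difference in log2 fold change was 6.52 for Egr1 (adjusted p = 0.00543), 3.24 for Junb (adjusted p = 0.00543), 2.16 for Ier2 (adjusted p = 4.16e-04), 1.10 for Jund (adjusted p = 0.0295) and -3.58 for the macrophage scavenger receptor gene Cd163 (adjusted p = 0.0237). Junb had 27.2, 32.0 and 19.1 CPM in BA10 livers and 2.97, 5.63 and 4.65 CPM in BA0 livers, against 5.74, 7.35 and 9.88 CPM in A10 livers and 12.3, 12.7 and 11.9 CPM in A0 livers. Cd163 had 0.796, 1.29 and 2.21 CPM in BA10 livers and 11.1, 4.76 and 8.09 CPM in BA0 livers, against 12.2, 11.4 and 9.88 CPM in A10 livers and 4.68, 6.29 and 4.42 CPM in A0 livers.

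The fitted difference was -6.06 for Scgb1a1 (adjusted p = 6.97e-04) and -8.47 for Sftpc (adjusted p = 0.00987), genes known as markers of lung epithelium. Scgb1a1 had 0, 0.0629 and 0.121 CPM in the A0 libraries and 3.65 to 6 CPM in the other 9. Sftpc had 0 CPM in each A0 library and 0.672 to 2.14 CPM in the other 9, so these fitted values depend on the prior count and are no bound. The source of these transcripts was not tested.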

How the results depend on the processing

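In the pooled comparison the 169 higher and 56 lower genes became 398 and 232 with DESeq2, 313 and 109 as the mean of the effects at the 2 AOS levels, 39 and 20 without the AOS term, 75 and 27 with the replicate block and a gene length correction, and 4 and 0 without A0 replicates 1 and 2. At the thresholds of the study (adjusted p of at most 0.001 and a log2 fold change of at least 1 in size) edgeR called 0 and 0 genes, limma-voom 0 and DESeq2 45. Leaving out 1 library gave 43 to 640 higher and 8 to 314 lower genes. BA0 compared to A0 had 816 genes, and 433 with no filter, 98 with the gene length correction, 37 with the gene length and GC correction, 1614 with DESeq2 and 4 to 1875 with 1 library left out. BA10 compared to A10 had 16 genes, and 156 with DESeq2 and 0 to 102 with 1 library left out. The difference between AOS levels had 7 genes, 267 with DESeq2 and 5 to 252 with 1 library left out. The cause of these shifts was not tested. Of 97 called genes followed singly, 0 changed direction under any of these alternatives. These genes had been called with the same libraries, so this is no independent check. The call was kept by 97 with DESeq2 and 83 with the gene length and GC correction. It was kept by 40 without the AOS term and 4 without A0 replicates 1 and 2. The length and GC correction and the alternatives at each AOS level were chosen after seeing the data.

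Replicate numbers gave no clear sign of pairing, and these weak correlations cannot exclude it. Deviations of same-numbered libraries correlated at -0.05 to 0.13 (median 0.03) and those of other libraries at -0.20 to 0.16 (median -0.01). Of 12 libraries, 4 correlated best with their own number. With the replicate block 128 genes were higher and 41 lower, and the count in BA10 compared to A10 was 1.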
